A study of Rattus norvegicus with 6 samples.

Results

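Vascular endothelial growth factors (VEGF) and angiopoietins, with their receptors, were followed in RNA from rat hearts after 7 days of ISO. The set comprised the ligand genes Vegfa, Vegfb, Vegfc, Angpt1 and Angpt2 and the receptor genes Kdr, Flt1, Flt4, Tek and Tie1, chosen by gene name. All 10 had a single row each among the 32883 named genes of the count table, and all 10 passed the filter on low counts. Wild-type male Sprague–Dawley rats, an outbred strain, were 8 weeks old and weighed 250 to 300 g. Subcutaneous injections were given daily over 7 days, of saline to 3 rats and of 1.5 mg/kg/day ISO to 3 others. The sources do not spell out ISO, which is taken to be isoproterenol, a drug that activates beta-adrenergic receptors. Each rat gave 1 heart library, and the injections serve as a model of enlarged and fibrotic myocardium.

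VEGF ligands are secreted dimers that bind receptor tyrosine kinases on endothelial cells. VEGF-A acts through VEGFR2, the product of Kdr, to drive endothelial growth and permeability, while VEGFR1, the product of Flt1, binds VEGF-A tightly with weak signalling and also binds VEGF-B. VEGF-C and VEGF-D are the ligands of VEGFR3, the product of Flt4, which is known above all from lymphatic vessels. Angiopoietin 1 activates TIE2, the product of Tek, and stabilises vessels, angiopoietin 2 can oppose it, and TIE1 is a related receptor that modulates TIE2. In the heart, VEGF-A comes largely from cardiomyocytes and acts on the capillaries beside them.

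Libraries held 14880391 to 17299589 counts. The tissue label was matched by the cardiomyocyte markers, whose 11 genes in the table summed to 49990 to 64648 unscaled CPM (counts scaled to a common library total) in saline and 39579 to 53921 in ISO. Libraries within ISO differed from each other. ISO replicate 1 held reads of Myl7, an atrial myosin gene singled out for its values (1128, against 0 and 17 in ISO replicates 3 and 2 and 9 to 25 in saline) and, also noticed from the values, more Vwf, the gene of von Willebrand factor, than any other library. ISO replicate 3 had the most fibroblast marker RNA, at 13199 unscaled CPM summed over 10 genes against 3684 and 5305 in ISO replicates 2 and 1 and 2035 to 2378 in saline.

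None of the 10 ligand and receptor genes was called in ISO against saline, where a call is an edgeR quasi-likelihood adjusted p under 0.05, against 2.97% of all 13766 genes tested. In the same test, 3 of the 10 had an unadjusted p under 0.05 (Kdr, Angpt1 and Vegfa, all with a lower mean in ISO), against 22.9% of all genes. DESeq2 called 1, Kdr, against 10.2% of all genes, and voom called 0. The log2 fold change of ISO over saline was below 0 in 8 genes and above 0 in 2 (6 and 4 without library scaling, where Flt4 and Tek changed sign), with a median of −0.18 against 0.02 over all genes tested. Without library scaling these medians stood at −0.08 and 0.13. No gene of the set had an absolute log2 fold change over 1, and the 95% intervals of all 10 lay between −0.99 and 0.55.

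**Figure D1:**
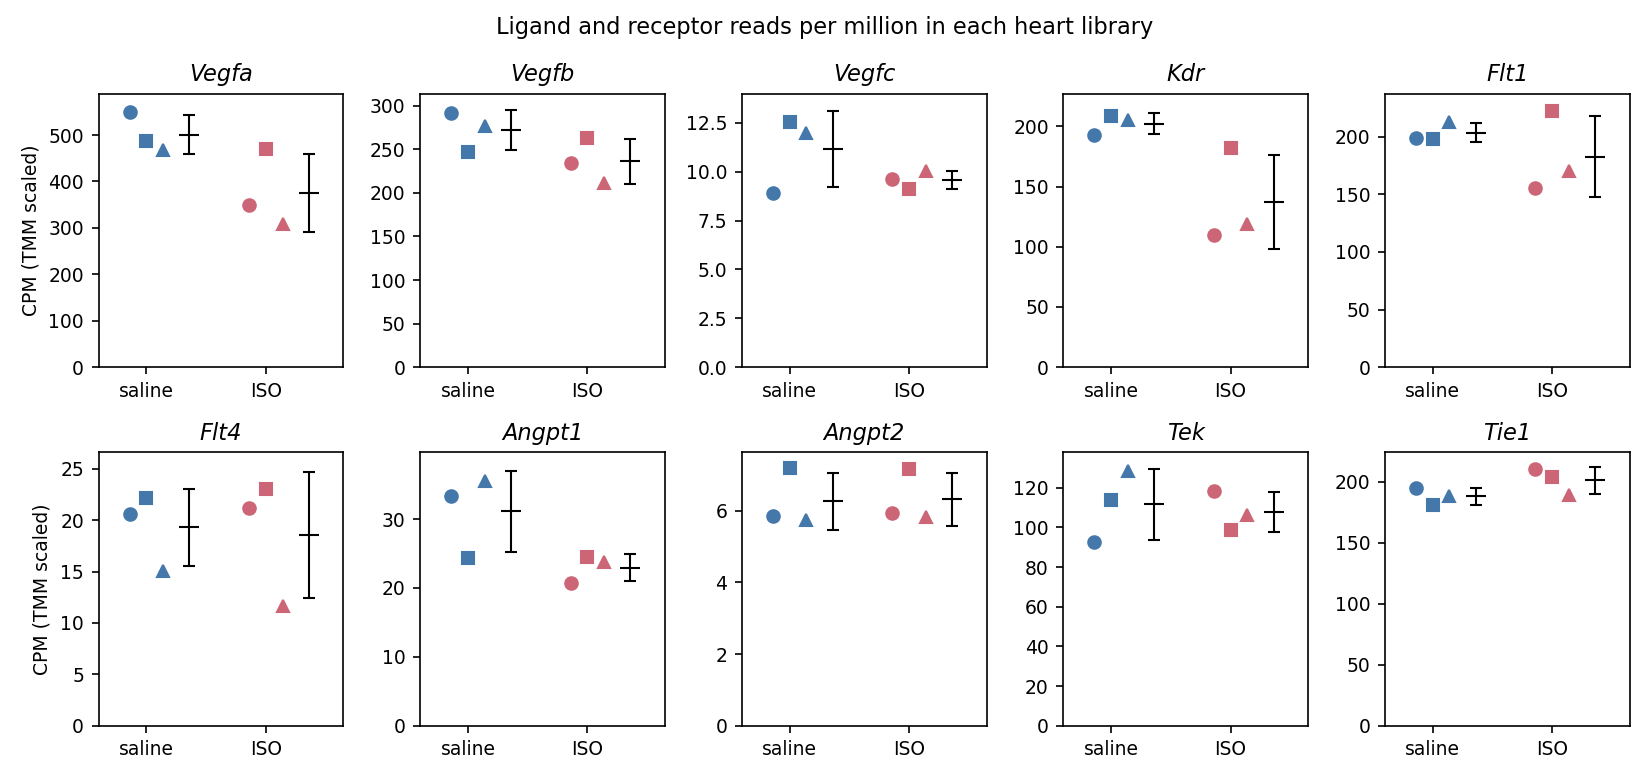
TMM-scaled CPM (vertical axis, from 0) of each ligand and receptor gene in 3 saline (blue) and 3 ISO (red) libraries, with replicate 1 as a circle, 2 as a square and 3 as a triangle, and the mean with its SD in black. Kdr is the gene of the set whose ISO libraries all sit below all saline libraries, and ISO replicate 2 lies nearest to saline for Vegfa and Kdr.

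Vegfa, the main growth factor for capillary endothelium (ENSRNOG00000019598), had levels of 549, 486 and 467 CPM in the saline libraries and of 349.7, 469 and 308 CPM in the ISO libraries (TMM-scaled CPM in the order of replicates 1 to 3, here and below). ISO replicates 1 and 3 were below every saline library, whereas ISO replicate 2 lay just above the lowest of them. Saline averaged 501 ± 42.4 CPM and ISO 376 ± 83.9 CPM (SD, n = 3). The log2 fold change was −0.42 (SE 0.17, 95% interval −0.81 to −0.02), which is 0.750-fold, with an edgeR adjusted p of 0.195. Without ISO replicate 2 it was −0.61 and called (edgeR adjusted p = 0.0408), in a fit where 5.95% of genes were called, 2.46% as lower. In the other 5 fits that left out a library it was not called, and it was smallest at −0.29 without ISO replicate 3.

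Kdr, which encodes the main signalling receptor for VEGF-A (ENSRNOG00000046829), stood at 193, 209 and 206 CPM in saline and 110.0, 182 and 119 CPM in ISO. All ISO libraries were below all saline libraries, as in 14.6% of all genes tested (28.8% had no overlap in either direction), with ISO replicate 2 only slightly below the lowest saline library. The means were 137 ± 39.4 and 202 ± 8.54 CPM. The spread within ISO was therefore larger than that within saline, and the log2 fold change of −0.56 (SE 0.19, 95% interval −0.99 to −0.13) had an edgeR adjusted p of 0.130. DESeq2 gave −0.56 with an adjusted p of 0.0431. The thresholds named by the series, a change beyond 0.5 on the log2 scale and p under 0.05, were met by Kdr and by 13.2% of all genes (4.5% with a lower mean in ISO) when applied to unadjusted edgeR p-values. Without ISO replicate 2 the change was −0.82 (edgeR adjusted p = 0.0164), and without ISO replicate 1 it was −0.43 (edgeR adjusted p = 0.330).

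**Figure D2:**
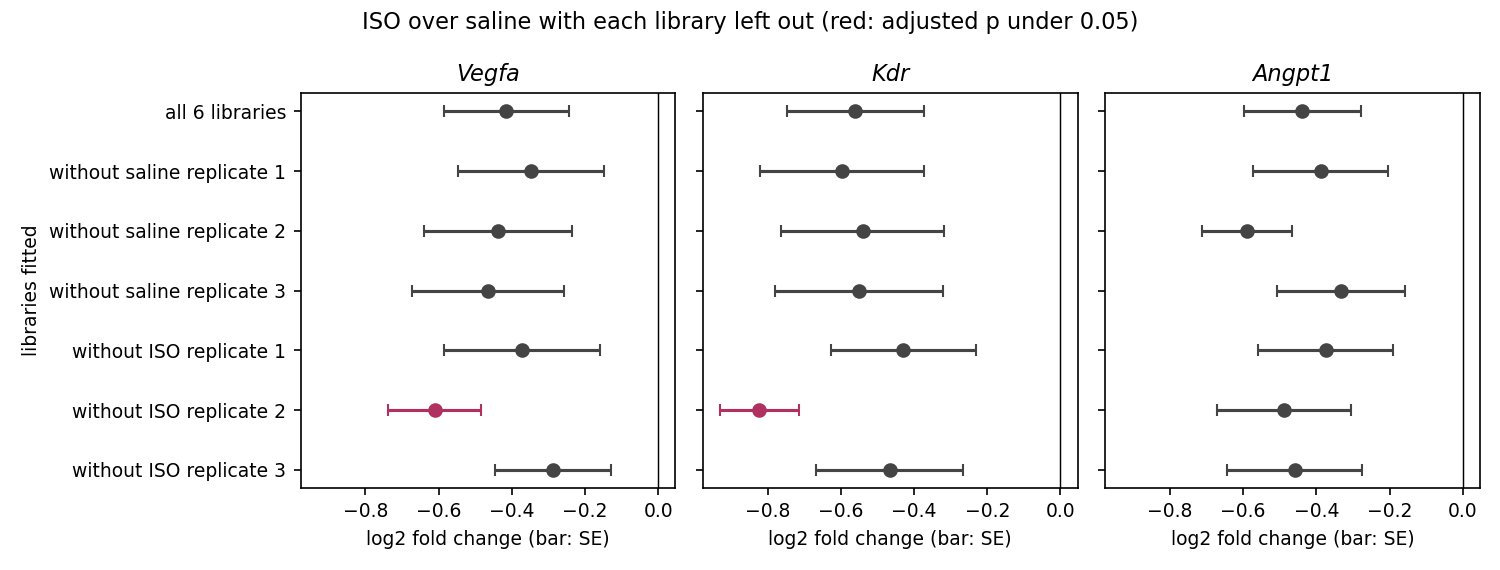
Log2 fold change of ISO over saline with its SE (horizontal axis) for Vegfa, Kdr and Angpt1 in the fit with all 6 libraries and with each library left out (vertical axis), red where the adjusted p was under 0.05. The values stay below 0 in every fit shown, and Vegfa at −0.61 and Kdr at −0.82 are called without ISO replicate 2.

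The bases before the start sites of Vegfa and Kdr are shown because this ligand and its receptor had their lowest levels in the same ISO libraries, 1 and 3. This pattern was not particular to the pair, since Vegfb and Flt1 were also lowest in these libraries. The cardiomyocyte marker median, relative to the saline mean, was −0.22, 0.06 and −0.50 on the log2 scale in ISO replicates 1 to 3. The bases of Vegfd are shown because it was the VEGF gene called higher in ISO. Each is the 250 bases before a RefSeq start in build GRCr8, written 5′ to 3′ on the gene's strand, namely chr9:22452604-22452853 (plus) for the first of 2 Vegfa starts, chr14:32571813-32572062 (plus) for Kdr and chrX:33739893-33740142 (minus) for Vegfd. Capitals mark a GC box (GGGCGG) or a TATA box (TATAAA) on either strand.
Vegfa: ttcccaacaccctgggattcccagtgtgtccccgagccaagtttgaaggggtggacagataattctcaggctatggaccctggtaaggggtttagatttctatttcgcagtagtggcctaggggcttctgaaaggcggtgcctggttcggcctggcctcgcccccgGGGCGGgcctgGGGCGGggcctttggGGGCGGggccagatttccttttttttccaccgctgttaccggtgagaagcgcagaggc
Kdr: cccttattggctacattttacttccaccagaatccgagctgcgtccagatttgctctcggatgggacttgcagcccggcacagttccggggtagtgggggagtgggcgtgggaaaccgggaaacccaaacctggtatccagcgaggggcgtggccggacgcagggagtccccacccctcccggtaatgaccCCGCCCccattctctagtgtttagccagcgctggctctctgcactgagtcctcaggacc
Vegfd: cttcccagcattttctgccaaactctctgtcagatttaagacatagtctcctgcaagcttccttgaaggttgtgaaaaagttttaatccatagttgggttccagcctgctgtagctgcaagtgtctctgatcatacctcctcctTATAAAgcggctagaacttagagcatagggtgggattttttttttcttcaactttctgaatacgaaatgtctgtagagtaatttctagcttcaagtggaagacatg
The Vegfa window held 3 GC boxes, the nearest 58 to 53 bases before the start, and the Kdr window held 1, at 59 to 54 bases. The Vegfd window held no GC box and had a TATA box 106 to 101 bases before the start. A window was found for 7 of the 10 ligand and receptor genes, 8 windows in all, and a GC box stood in 7 of these 8 against 30.5% of the 33469 windows of the same length in the table. The core letters bound by hypoxia-inducible factors (ACGTG) and an ETS site (CAGGAAG), searched on both strands like the others, none of these motifs containing another, were in 0 of the 8 windows, against 16.6% and 10.2% of all windows. The G and C content of the 8 windows ranged from 56.0% to 76.0%, where the median over all windows was 51.2%. These matches describe letters in a window and were not tested against expression. Sites outside the 250 bases, or spelled with other letters, were not searched.

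The other VEGF ligands of the set were nearer to saline. Vegfb, whose product binds VEGFR1 (ENSRNOG00000021156), stood at 292, 247 and 277 CPM in saline and 234, 263 and 212 CPM in ISO. The groups overlapped, and the log2 fold change was −0.20 (SE 0.13, edgeR adjusted p = 0.373). Vegfc, the lymphatic growth factor gene (ENSRNOG00000011416), rested on 131 to 201 reads per library, at 8.92, 12.6 and 12.0 CPM in saline and 9.65, 9.11 and 10.035 CPM in ISO. All ISO libraries lay between the lowest and the other saline libraries, and the difference was −0.22 on the log2 scale (95% interval −0.63 to 0.19, edgeR adjusted p = 0.502).

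Among the other VEGF receptors, Flt1 (ENSRNOG00000000940) stood at 199, 198 and 213 CPM in saline and 156, 222 and 170.2 CPM in ISO. ISO replicate 2 was above every saline library and ISO replicates 1 and 3 were below them, and the log2 fold change was −0.15 (SE 0.15, edgeR adjusted p = 0.576). Flt4 (ENSRNOG00000002511) rested on 199 to 369 reads per library, at 20.6, 22.2 and 15.1 CPM in saline and 21.2, 23.0 and 11.6 CPM in ISO. Its lowest library in each group was replicate 3, and the log2 fold change was −0.05 (SE 0.26, 95% interval −0.66 to 0.55), or 0.04 without scaling. The summed level of the 8 lymphatic endothelial markers was also lowest in replicate 3 of each group, at 152 unscaled CPM in saline and 157 in ISO, where the highest libraries held 306 and 289. Of these markers, named here after their values were seen, Prox1, Ccl21, Reln and Mmrn1 had this pattern in both groups. Lyve1, Pdpn, Foxc2 and Sema3d did not. Summed epicardial markers (24.2 and 30.2 unscaled CPM) and red cell transcripts (4118 and 1713) were likewise lowest in replicate 3 of saline and ISO. The part of lymphatic vessel content in the Flt4 values was not tested.

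Angpt1, the gene of the activating TIE2 ligand (ENSRNOG00000005854), stood at 33.4, 24.4 and 35.6 CPM in saline and 20.7, 24.4 and 23.7 CPM in ISO. Saline replicate 2 lay within the ISO range, just below its upper end, and the other saline libraries above it. Saline averaged 31.1 ± 5.92 and ISO 23.0 ± 2.01 CPM, and the difference of −0.44 on the log2 scale (SE 0.16, 95% interval −0.80 to −0.07) had an edgeR adjusted p of 0.155. Without saline replicate 2 it was −0.59, still not called (edgeR adjusted p = 0.0976).

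Angpt2, the gene of the context-dependent TIE2 antagonist (ENSRNOG00000016696), rested on 86 to 115 reads per library. It stood at 5.86, 7.19 and 5.75 CPM in saline and at 5.95, 7.17 and 5.83 CPM in ISO. These ranges coincided almost exactly, and the log2 fold change was 0.01 (SE 0.20, 95% interval −0.44 to 0.47, edgeR adjusted p = 0.980).

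Both Tie receptor genes had overlapping groups. Tek (ENSRNOG00000008587) stood at 92.8, 114 and 128 CPM in saline and 118, 98.7 and 106 CPM in ISO, so that all ISO libraries lay inside the saline range, and the log2 fold change was −0.05 (SE 0.14, 95% interval −0.38 to 0.27), or 0.06 without scaling. Tie1 (ENSRNOG00000020173) stood at 195, 181 and 188 CPM in saline and 211, 204 and 189 CPM in ISO. It had the narrowest 95% interval of the set, −0.14 to 0.33 around 0.10 on the log2 scale (SE 0.10, edgeR adjusted p = 0.615). Levels of the ligand and receptor genes were not ranked against each other, since no transcript lengths were used here.

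Ratios within a library do not depend on library scaling, and 12 were compared by a two-sided exact permutation test that cannot go below p = 0.1 with 3 libraries against 3. The log2 ratio of Kdr to Flt1 reads was −0.04, 0.07 and −0.05 in saline and −0.50, −0.29 and −0.51 in ISO. Every ISO library was below every saline library, including ISO replicate 2, and the difference of −0.43 reached the smallest possible exact permutation p of 0.1 (0.6 after Benjamini-Hochberg adjustment over the 12 ratios). Leaving out each library in turn gave −0.50 to −0.39. The log2 ratio of Angpt2 to Angpt1 averaged −1.86 ± 0.14 in ISO and −2.30 ± 0.47 in saline with overlapping groups (exact permutation p = 0.4). For Vegfa over Flt1 the difference was −0.27 (exact permutation p = 0.2), for Vegfa over Kdr it was 0.16 (exact permutation p = 0.4), for Vegfb over Vegfa it was 0.23 (exact permutation p = 0.2) and for Tek over Tie1 it was −0.14 (exact permutation p = 0.5).

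Endothelial content was followed with 16 pan-endothelial markers, of which 15 were in the table and 13 were tested. None of the 13 was called by edgeR (2.97% of all genes) or DESeq2 (10.2% of all genes), and voom called 0. Icam2, named for that value, was the 1 marker with an unadjusted edgeR p under 0.05, against 22.9% of all genes. The median log2 fold change of the 13 was −0.07, or 0.03 without scaling. Eng, the endoglin gene, had the highest saline CPM of the 13, not corrected for transcript length, and gave −0.23 (SE 0.13, edgeR adjusted p = 0.321). The junction gene Cdh5, named after its values were seen, gave −0.10 (SE 0.13). The 2 markers not tested, also named after their values were seen, were Cldn5, with 0 reads in all 6 libraries, and Robo4, with 1, 2 and 3 reads in saline and 52, 57 and 4 in ISO. The 15 markers in the table summed to 1175 to 1295 unscaled CPM in saline and 1168, 1255 and 1745 in ISO replicates 2, 3 and 1. ISO replicate 1 held 11312 Vwf reads against 3507 to 5482 in the other libraries. In bulk tissue, fewer cells of a type and less RNA per cell cannot be told apart.

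Relative to the geometric mean of these 13 markers, Kdr was lower in every ISO library than in every saline library. The log2 ratio was 1.80, 1.81 and 1.70 in saline and 0.83, 1.66 and 1.12 in ISO. The difference was −0.57 (exact permutation p = 0.1, the smallest possible, and 0.6 after Benjamini-Hochberg adjustment over the 12 ratios). This ratio and that of Kdr to Flt1 use the same Kdr values and are not independent. Without Vwf among the markers, an alternative chosen after seeing the data, the difference was −0.54, and with Cdh5 alone it was −0.50. Without ISO replicate 1 it was −0.38, and without ISO replicate 2 it was −0.79. For Flt1, Flt4, Tek, Tie1 and Angpt2 the groups overlapped on this measure, with differences of −0.14, −0.07, −0.01, 0.13 and 0.04 (exact permutation p = 0.3 to 0.9).

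**Figure D3:**
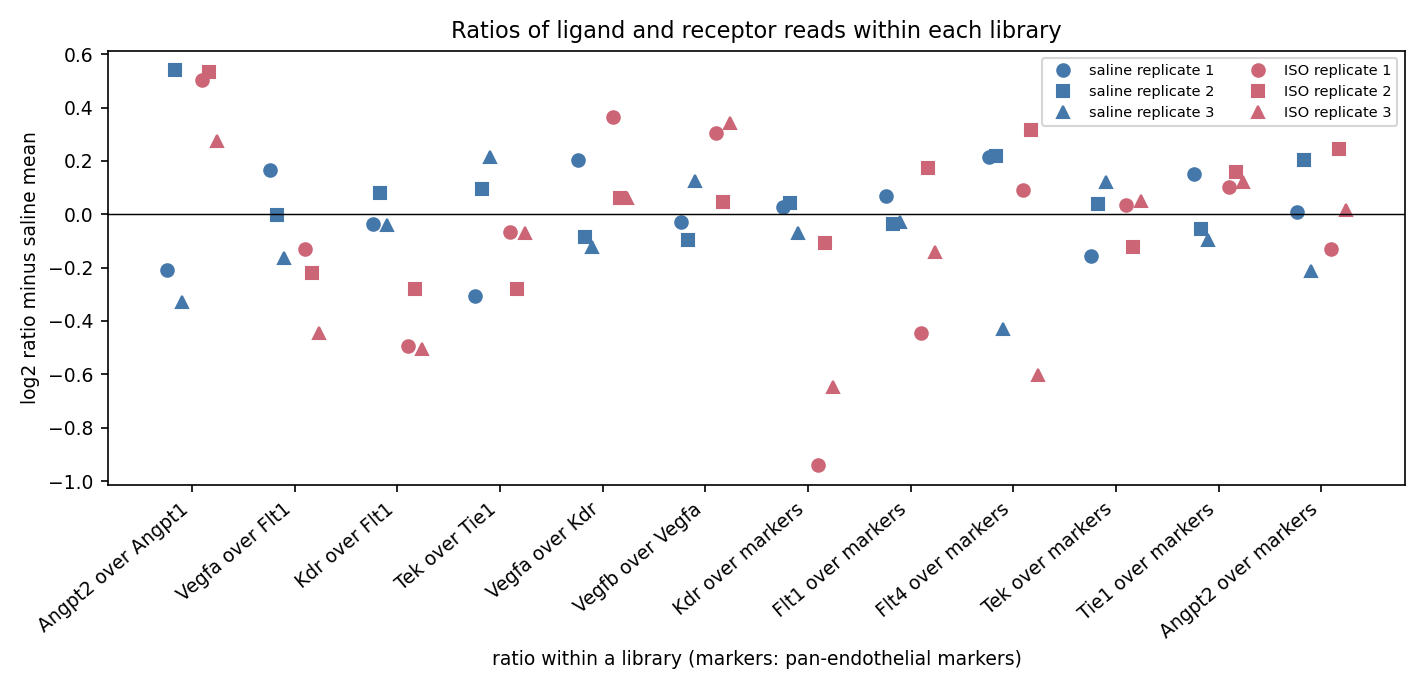
Log2 ratio of reads within each library minus the saline mean of that ratio (vertical axis) for 12 ratios (horizontal axis), with saline in blue and ISO in red and the replicates as circle, square and triangle. The ISO libraries lie below all saline libraries for Kdr over Flt1 and Kdr over the pan-endothelial markers, and the groups overlap for the other 10 ratios.

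Called genes were found among the related VEGF and angiopoietin genes. Of 7 tested genes in this list, 1 was called higher, 1 lower and 5 were not called, beside 2.97% called over all genes. The list's median was 0.13 (0.23 without scaling, −0.05 without saline replicate 2 and −0.08 without ISO replicate 1). In this list 4 of the 7 had an unadjusted edgeR p under 0.05 (22.9% of all genes), and DESeq2 called 3 (10.2% of all genes). Vegfd, the second ligand of VEGFR3 (ENSRNOG00000003587), stood at 14.5, 14.6 and 7.90 CPM in saline and 37.8, 46.3 and 50.4 CPM in ISO. Every ISO library was far above every saline library, and 14.1% of all genes tested had all ISO libraries above all saline libraries. Vegfd rose 3.63-fold, or by 1.86 on the log2 scale (SE 0.24, 95% interval 1.32 to 2.40, edgeR adjusted p = 0.0142). It stayed called in 4 of the 6 fits that left out a library. Without saline replicate 1 or 2 it was 1.987 and 2.002, with edgeR adjusted p of 0.0528 and 0.0525. Calls over all genes also changed in such fits, from 203 higher and 206 lower with all 6 libraries. Without saline replicates 1, 2 and 3 they were 14 and 12, 6 and 16, and 7 and 5. Without ISO replicates 1, 2 and 3 they were 9 and 14, 492 and 346, and 171 and 124. Calls kept or lost by single genes, here and below, stand beside these counts.

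Nrp1, which encodes neuropilin 1, a co-receptor that strengthens VEGF-A signalling through VEGFR2, stood at 305, 369 and 384 CPM in saline and 229.7, 217 and 249.7 CPM in ISO. All ISO libraries were below all saline libraries, as in 14.6% of all genes tested. Nrp1 fell by 0.60 on the log2 scale (SE 0.13, edgeR adjusted p = 0.0483). Its call was lost in all 6 fits that left out a library (edgeR adjusted p from 0.0564 to 0.187), without scaling (0.0747) and with voom (0.0520). Nrp2, the co-receptor gene for VEGF-C, named after its values were seen, gave −0.57 (SE 0.18, edgeR adjusted p = 0.112), also with no overlap between groups. Ptprb, a phosphatase acting on TIE2, gave 0.20 (SE 0.16) and Pgf, the placental growth factor gene with 23 to 43 reads per library, gave 0.13 (SE 0.34); both were likewise named after their values were seen. The protease genes Adam17 and Adamts3, named in the same way, gave −0.43 (edgeR adjusted p = 0.112) and 0.55 (edgeR adjusted p = 0.409). Groups did not overlap for Adam17, with ISO below saline, and overlapped for Adamts3.

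**Figure D4:**
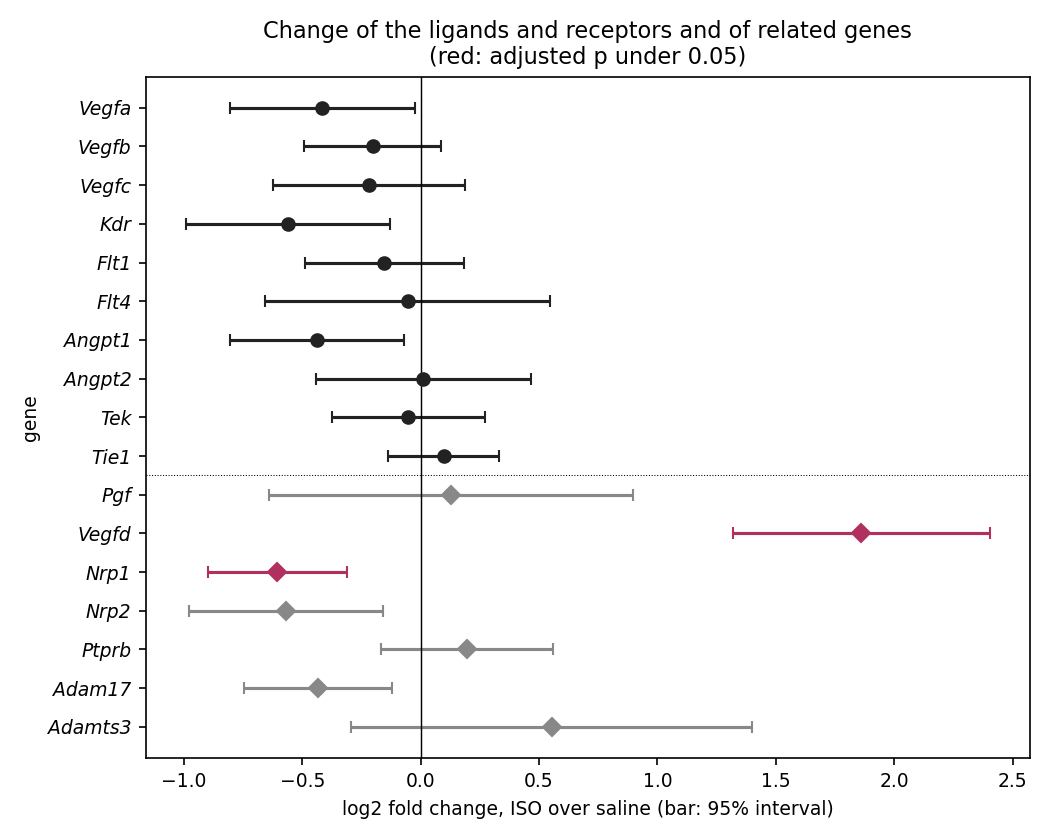
Log2 fold change of ISO over saline with its 95% interval (horizontal axis) for the 10 ligand and receptor genes (circles, above the dotted line) and 7 related genes (diamonds, below it), red where the adjusted p was under 0.05. Vegfd at 1.86 and Nrp1 at −0.60 are the called genes, and none of the 10 circles is red.

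Of 26 genes that carry VEGF and TIE2 signals inside the cell, 1 was called higher and 1 lower, beside 2.97% called over all genes. The median was −0.09 (0.03 without scaling). Among the 26, 7 had an unadjusted edgeR p under 0.05 (22.9% of all genes), and DESeq2 called 4 (10.2% of all genes). Hspb1, a small heat shock protein phosphorylated downstream of VEGFR2, fell by 0.78 on the log2 scale, from 179 ± 20.2 to 104 ± 8.10 CPM (SE 0.12, edgeR adjusted p = 0.0205). Src, a tyrosine kinase used by many receptors, rose by 0.80, from 14.0 ± 1.99 to 24.2 ± 3.83 CPM (SE 0.17, edgeR adjusted p = 0.0462), and voom did not call it (adjusted p = 0.0528). The endothelial nitric oxide synthase gene Nos3, named after its values were seen, gave −0.07 (SE 0.13). Each left-out fit kept the direction of Hspb1 and Src, with Hspb1 called in 2 of 6 and Src in 1 of 6. The cell types in which Hspb1 and Src changed cannot be told from bulk tissue.

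Endothelial target genes of VEGF and Notch had 2 of 18 tested genes called lower and none higher, beside 2.97% called over all genes. Their median was −0.18 (−0.07 without scaling). DESeq2 called 5 of the 18 (10.2% of all genes), and 6 had an unadjusted edgeR p under 0.05 (22.9% of all genes). Apln, which encodes the tip-cell peptide apelin, stood at 27.7, 25.8 and 29.1 CPM in saline and 13.5, 14.8 and 10.5 CPM in ISO. These groups were far apart, with all ISO libraries below all saline libraries, as in 14.6% of all genes tested. Apln fell by 1.09 on the log2 scale (SE 0.15, edgeR adjusted p = 0.0164). Rcan1, a calcineurin inhibitor that VEGF induces in endothelium and that cardiomyocytes also express, fell by 1.34 (SE 0.17, edgeR adjusted p = 0.0142). Apln was called in 2 and Rcan1 in 3 of the 6 fits that left out a library. Over these fits the log2 fold change ran from −1.20 to −0.95 for Apln and from −1.44 to −1.17 for Rcan1. The tip-cell gene Esm1 (−1.58, SE 0.52, edgeR adjusted p = 0.127), the apelin receptor gene Aplnr (−0.67, SE 0.16, edgeR adjusted p = 0.0632) and the Notch ligand gene Dll4 (−0.12, SE 0.13) were not called and were named after their values were seen.

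Low oxygen is a known inducer of Vegfa. Oxygen sensing and hypoxia target genes had 1 of 20 tested genes called lower and none higher, beside 2.97% called over all genes. Their median was −0.15 (−0.05 without scaling). An unadjusted edgeR p under 0.05 was found for 8 of the 20 (22.9% of all genes), in both directions, and DESeq2 called 1 (10.2% of all genes). Egln3, a prolyl hydroxylase that is itself induced by hypoxia, stood at 276, 311 and 224 CPM in saline and 138, 156 and 160 CPM in ISO, and fell by 0.84 on the log2 scale (SE 0.14, edgeR adjusted p = 0.0266). It was called in 2 of the 6 fits that left out a library. The 3 genes of HIF alpha subunits, named after their values were seen, did not share a direction and were not called. Hif1a gave −0.29 (SE 0.13, edgeR adjusted p = 0.213), Epas1 gave −0.20 (SE 0.14) and Hif3a, on 8 to 51 reads per library, gave 1.56 (SE 0.54, edgeR adjusted p = 0.1403).

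Growth regulators of capillaries from other families had 1 of 18 tested genes called higher and none lower, beside 2.97% called over all genes. Their median was 0.17 (0.27 without scaling). Unadjusted edgeR p-values under 0.05 were found for 6 of the 18 (22.9% of all genes), and DESeq2 called 4 (10.2% of all genes). Col18a1, the collagen from which the angiogenesis inhibitor endostatin is cleaved, rose by 1.03 on the log2 scale, from 41.6 ± 3.23 to 84.9 ± 10.5 CPM (SE 0.12, edgeR adjusted p = 0.0138). Its call was kept in 2 of the 6 fits that left out a library.

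Markers of other cell types gave the setting of these values. Of 10 fibroblast markers 2 were called higher and none lower (median 1.21). Of 10 macrophage markers 5 were called higher and none lower (median 1.13), beside 2.97% called over all genes. All 10 of each list had an unadjusted edgeR p under 0.05 (22.9% of all genes). DESeq2 called 8 fibroblast and 9 macrophage markers (10.2% of all genes). Postn, the periostin gene of activated fibroblasts, rose by 5.71 on the log2 scale and Dpt by 0.87. The complement genes C1qa and C1qc rose by 1.15 and 0.91. With each library left out in turn, Postn (4.13 to 6.15), Dpt and C1qc were called in 2 of 6 fits and C1qa in 3 of 6. Summed macrophage markers stood at 350 to 414 unscaled CPM in saline and 798 to 1936 in ISO. None of the 11 cardiomyocyte, 11 pericyte and smooth muscle, 8 capillary and venous or 6 epicardial markers was called by edgeR, and voom called 0. In this order, 3, 4, 3 and 0 had an unadjusted edgeR p under 0.05, against 22.9% of all genes. DESeq2 called 3, 2, 3 and 0, against 10.2% of all genes. The medians were −0.21, 0.08, 0.02 and −0.13. The epicardial median was 0.69 without saline replicate 2 and −0.51 without saline replicate 3. Myh6, the alpha myosin heavy chain gene, gave −0.57, Abcc9, a potassium channel subunit gene of pericytes and cardiomyocytes, gave 0.00, Fabp4, a capillary fatty acid binding protein gene, gave 0.62 and Wt1 gave −0.35. Of 8 lymphatic markers, 1 was lower, the transcription factor gene Prox1, which cardiomyocytes also express (−0.63, SE 0.12, edgeR adjusted p = 0.0354), and the list's median was 0.21. Prox1 was called in 1 of the 6 fits that left out a library, and the list's median was 0.72 without saline replicate 2 and 0.03 without saline replicate 3. Red cell transcripts had 1 of 6 lower, Hemgn at −2.57, and atrial markers 1 of 3 tested higher, Nppa at 3.40. The list medians were −0.96 and 3.59, the atrial one 0.51 without ISO replicate 1. Relative to the saline mean, Nppa stood at 3.68, 4.08 and 3.36 on the log2 scale in ISO replicates 1 to 3. The atrial marker Myl4, named after its values were seen, stood at 4.98, 0.81 and 0.11. Hemgn was not called with voom (adjusted p = 0.0532) and was called in 1 of the 6 fits that left out a library, and Nppa in 3 of 6. The part of these shifts in the ligand and receptor values was not tested.

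**Figure D5:**
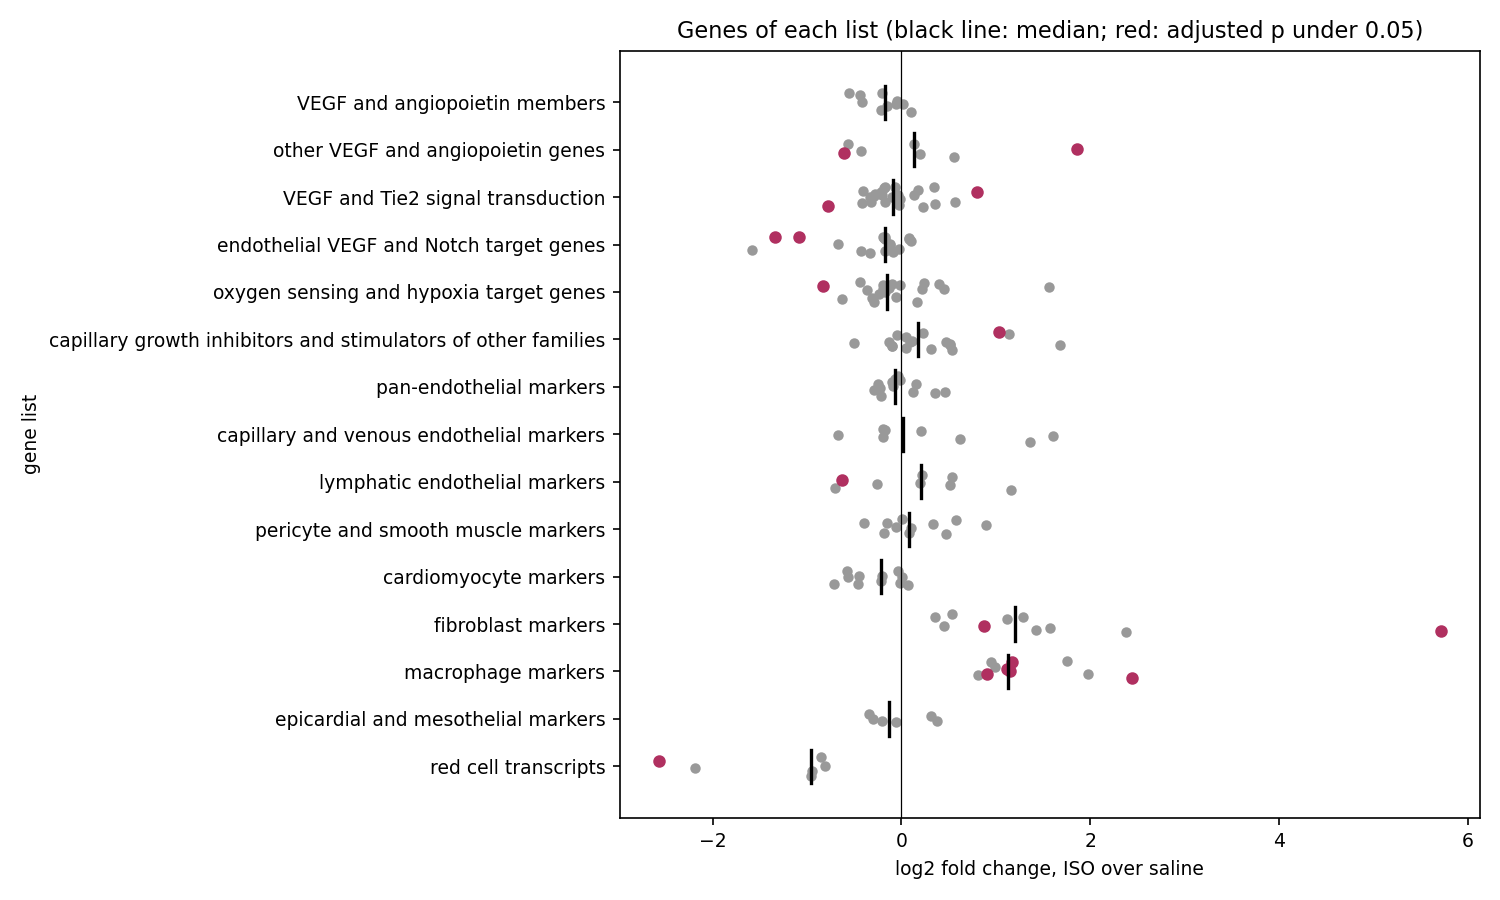
Log2 fold change of ISO over saline (horizontal axis) of each tested gene in the ligand and receptor set and in 14 gene lists (vertical axis; the 3 tested atrial markers are not drawn), with the list median as a black line and genes with an adjusted p under 0.05 in red. The ligand and receptor genes lie between −0.56 and 0.10 with no red point, and the fibroblast and macrophage markers have medians of 1.21 and 1.13.

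By the pattern of log2 CPM over the 6 libraries, centred on the saline mean, the 3 genes nearest to Angpt1 were Ercc5, Dglucy and Mmab, and the 3 nearest to Kdr were Ispd, Spata13 and Rdh13. Their root mean square distances were 0.06 to 0.07 for Angpt1 and 0.06 to 0.10 for Kdr on the log2 scale, where the median over 9760 genes compared was 0.39 and 0.50. Angpt1 and Kdr were taken as the ligand and the receptor with the smallest unadjusted p. None of these 6 genes was called, with log2 fold changes from −0.59 for Ispd to −0.36 for Mmab. Similar fold changes follow from choosing genes by closeness to Angpt1 or Kdr, which were not called either.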

How the data were processed

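RNA was measured in 6 rat hearts, grouped by the treatment in each label. Per the series description, the authors aligned 150 bp read pairs to the rat genome with HISAT2 and quantified genes with featureCounts. The deposited table holds raw counts as whole numbers. Not given in the sources used here are tool versions and the strand setting. Reads of antisense or overlapping genes may therefore be mixed. The submitters' processing notes list mm10, a mouse build, although the identifiers are those of rat genes in Ensembl. Of 33889 rows, 1006 without a gene name (0.981% to 1.32% of counts) were left out.

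The test was edgeR 4.0.16 under R 4.3.3 (quasi-likelihood F test, TMM scaling, default filter on low counts, Benjamini-Hochberg adjustment over 13766 genes), and tested on simulated data first. The SE is the absolute log2 fold change divided by the square root of F. Alternatives used DESeq2 1.42.0, voom from limma 3.58.1 and the settings named in the closing section. The genes, lists and rules were chosen with earlier results of these data known. The naming rule took all 10 ligand and receptor genes, and up to 3 called genes of a pathway list and 2 of a marker list. Otherwise it took the 2 or 1 with the highest saline CPM, not corrected for transcript length. It also took the nearest patterns with at least 5 CPM, and any other gene is marked. Promoter sequences are from RefSeq (GRCr8), and no genome coordinates of the counts were used. No 2 libraries were duplicates of each other. The precision is set by 3 rats per group.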

Additional observations from a re-analysis of the deposited data

How the results depend on the processing

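Against 203 genes higher and 206 lower over all genes, the counts were 322 and 272 with no filter on low counts, 280 and 123 without scaling, 752 and 653 with DESeq2, 4 and 7 at an adjusted p under 0.01 and 1193 and 619 by the thresholds of the series. Leaving out each library gave 6 to 492 higher and 5 to 346 lower genes, the most without ISO replicate 2. Of the ligand and receptor genes, 1 was lower with DESeq2 and by the thresholds of the series (Kdr), and 0 to 2 with a library left out (Vegfa and Kdr without ISO replicate 2). With the replicate number as a block (replicate block), 15 genes were higher and 13 lower and no ligand or receptor gene was called (Kdr −0.60, edgeR adjusted p = 0.143). Deviations of same-numbered libraries from their group means correlated at 0.0874, −0.0989 and 0.0176 across genes. The labels do not say whether equal numbers mark a pairing, and correlations from 3 libraries per group cannot settle it.

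Kdr ranged from −0.82 to −0.43 and Vegfa from −0.61 to −0.29 over all settings. Signs changed for single genes near 0. Flt4 was 0.044 without scaling and −0.24 to 0.20 with a library left out, Tek was 0.063 and −0.17 to 0.059, and Angpt2 was −0.092 to 0.12 with a library left out. Abcc9 was −0.0051 with no filter, −0.0058 without mitochondrial genes and −0.035 to 0.058 with a library left out. List medians changed sign too. With a library left out the epicardial median ran from −0.51 to 0.69, that of the related VEGF and angiopoietin genes from −0.083 to 0.26 and that of the pericyte markers from −0.031 to 0.14. The epicardial median was 0.21 with voom and 0.12 with the replicate block. Pan-endothelial markers (0.034) and signal transduction genes (0.025) were above 0 without scaling, and the former also without saline replicate 3 (0.0040). The cause was not tested. The planned ratio to Pecam1 and Cdh5 used Cdh5 alone, since no row matched Pecam1. Depth limits genes on few reads, such as Esm1 with 8 to 107 reads per library.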
